A study of Mus musculus with 4 samples.

Results

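Small nucleolar RNA (snoRNA) genes were followed across 3 mouse medulloblastomas and 1 wild-type cerebellum. The genes were chosen by name: every probe set of the Affymetrix Mouse Gene 1.0 ST array whose only annotated gene symbol starts with Snora or Snord. This gave 56 probe sets for 51 genes, of 19938 named genes on the array. Of these 51 genes, 20 were of the box H/ACA class (Snora) and 31 of the box C/D class (Snord). For the 5 genes with several probe sets, the brightest on average stood for the gene. A further 41 probe sets named a snoRNA gene together with another gene and were not members. No gene of the brain-enriched imprinted snoRNA clusters was among the members.

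Each group of the study is small. The control was normal cerebellum from the wild type, taken at 2 months (1 array). The SmoM2 group held medulloblastomas of Math1-Cre;SmoM2 mice at 1 month and at 2 months (1 array each), in which Cre driven by the granule-lineage gene Math1 (Atoh1) switches on an active Smoothened. The PtchLacZ/+ group was 1 medulloblastoma at 5 months, from a mouse with a lacZ allele of the Hedgehog receptor gene Ptch1. All mice had a mixed background of the C57BL/6 and C3H strains, and the labels do not say how many animals stand behind each array. Without replicates of the cerebellum, of the PtchLacZ/+ tumour or of an age, genotype, age and single-sample effects cannot be told apart. The p-values below rest on the spread between tumour arrays, which differ in genotype or age, and hold no spread of the cerebellum.

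snoRNAs guide chemical changes of other RNAs in the nucleolus. Box H/ACA snoRNAs, bound by dyskerin (Dkc1), Gar1, Nhp2 and Nop10, direct the conversion of uridine to pseudouridine in ribosomal RNA. Box C/D snoRNAs, bound by fibrillarin (Fbl), Nop56, Nop58 and Snu13, direct methylation of the ribose. A few of both classes are needed for cutting the ribosomal RNA precursor. In mammals most are cut out of introns of host genes, many of which encode ribosomal proteins, translation factors or noncoding host RNAs, so that a host and its snoRNA come from 1 primary transcript. The members were 45 to 205 nucleotides long (median 125 for H/ACA and 68 for C/D genes). RNA was prepared with the RNeasy mini kit, per the labels. As background, columns of this kind retain RNAs this short poorly, and whether a probe set read the mature snoRNA, its precursor or the host intron was not determined.

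The labelled tissues were first checked against defining markers. Atoh1, which marks granule neuron progenitors, had a log2 level of 4.85 in the cerebellum and of 11.39 to 11.98 in the tumours, and the mature granule neuron gene Gabra6 was at 12.24 in the cerebellum and between 4.64 and 7.97 in the tumours. The files hold no detection calls. Levels below the lower quartile of the array (5.09 to 5.17 over its named genes) are therefore described as not shown to be above background. In bulk tissue, fewer cells of a type and less RNA per cell cannot be told apart. Of the 20 H/ACA genes, 1 lay under it in the cerebellum, 5 in the 2-month SmoM2 tumour and none in the other tumours. Of the 31 C/D genes, 3 or 4 lay under it in each array. Snord118, Snord38a and Snord58b did so in all 4.

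Against the cerebellum, the classes did not move alike in all tumours. In the 1-month SmoM2 tumour the median difference was 0.65 for H/ACA and 0.67 for C/D genes on the log2 scale, with 17 of 20 and 27 of 31 genes higher. In the PtchLacZ/+ tumour the medians were 0.49 and 0.87, with 20 of 20 and 28 of 31 higher. In the 2-month SmoM2 tumour the H/ACA median was -0.36, with 3 of 20 genes higher, while the C/D median was 0.26, with 19 of 31 higher. Over all named genes the medians were 0.01, 0.03 and 0.07 in the 1-month SmoM2, PtchLacZ/+ and 2-month SmoM2 tumours, and 51.0%, 52.5% and 56.3% of genes were higher. These 3 differences share the 1 cerebellum array, so each is given for itself. The gap between the classes (H/ACA median minus C/D median) was -0.02, -0.38 and -0.62 in that order, with an SD of 0.30 over the 3 tumours. Taken from each gene's mean over the tumours it was -0.29, a different statistic that is not judged against this SD. It was -0.13 when the 2-month SmoM2 array was left out, -0.41 when the 1-month array was and -0.26 when the PtchLacZ/+ array was. Genes of 1 array are not replicates, and no test of the gap was made.

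**Figure D1:**
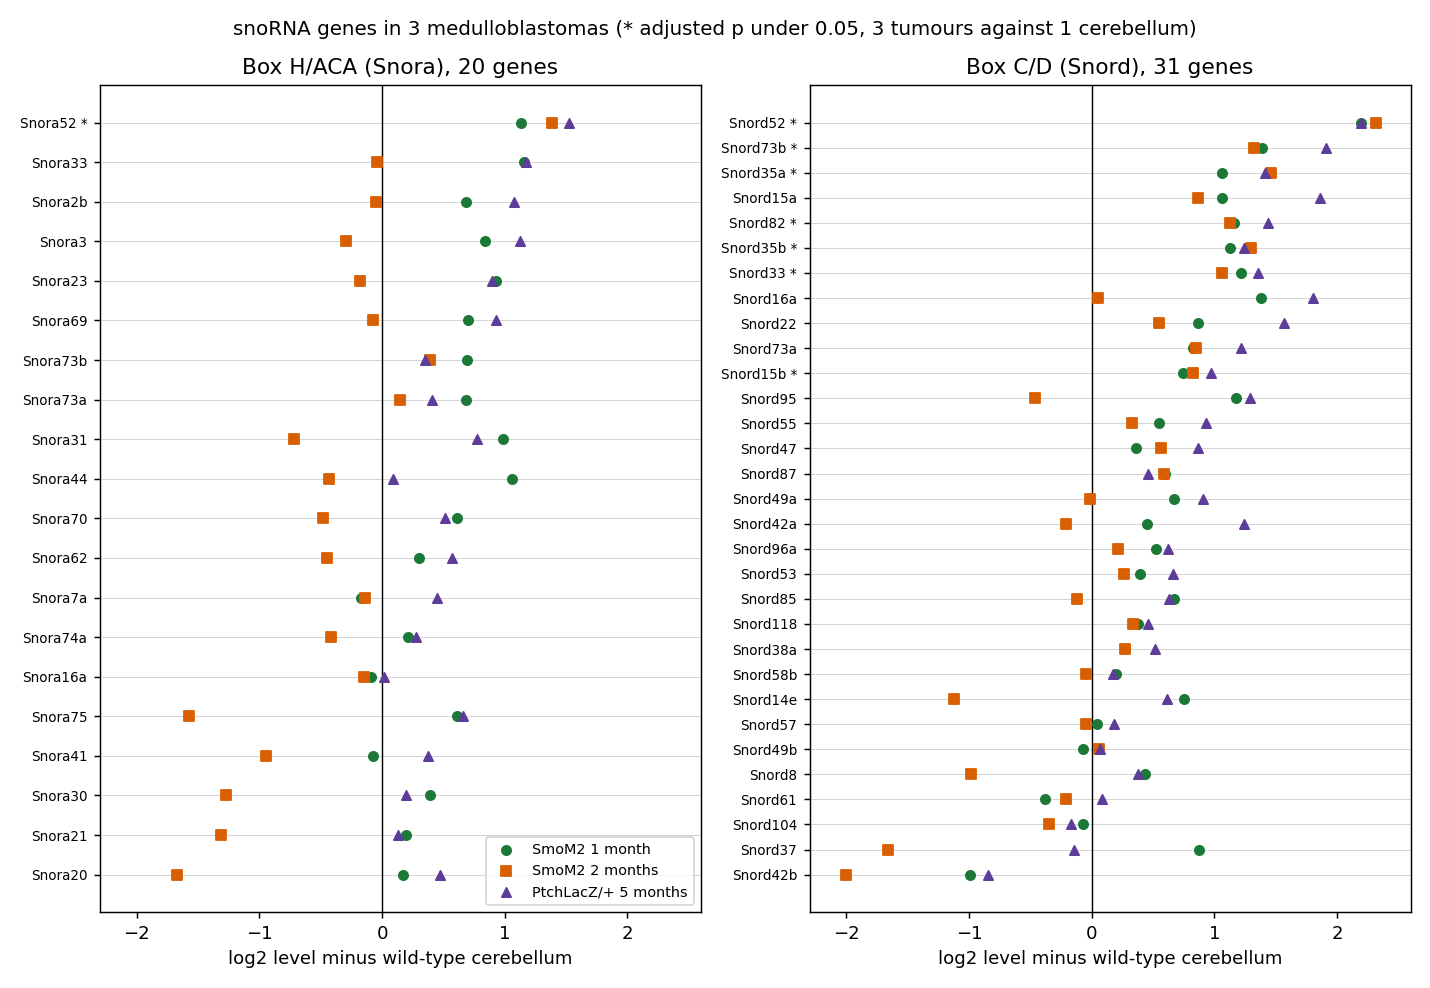
Difference of each snoRNA gene from the wild-type cerebellum on the log2 scale (x axis) in the 3 tumours (symbols), with genes in rows ordered by their mean difference; an asterisk marks an adjusted p under 0.05 for the 3 tumours against the cerebellum. The squares of the 2-month SmoM2 tumour lie left of 0 for 17 of 20 box H/ACA genes, whereas the called box C/D genes have all 3 symbols to the right.

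The 3 tumours were tested as 1 group against the cerebellum with limma over all 19938 genes, with Benjamini-Hochberg adjustment. Of the 31 C/D genes 7 rose, of the 20 H/ACA genes 1 rose, and no member fell. For comparison, 6.70% of all named genes rose and 9.30% fell. As shares, 22.6% of C/D and 5.00% of H/ACA genes rose. An unadjusted p under 0.05 was reached by 11 C/D genes and 1 H/ACA gene, against 29.7% of all named genes.

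Among the C/D genes, Snord52 had the largest difference. Its level was 4.97 in the cerebellum, 7.17 in the 1-month SmoM2, 7.29 in the 2-month SmoM2 and 7.16 in the PtchLacZ/+ tumour. It rose by 2.24 ± 0.17 (limma's standard error; adjusted p = 0.0043), a 4.71-fold change, and since its cerebellar level is not shown to be above background this is a lower limit. The tumours lay close together, and the cerebellum was the lowest of the 4 arrays, as it was for 38.2% of all named genes. Snord52 was also the member with the lowest adjusted p in each fit that left out a tumour, from 0.000854 without the 2-month to 0.0177 without the PtchLacZ/+ tumour.

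Snord33 and Snord35a, which lie in the ribosomal protein gene Rpl13a, rose, and so did Snord35b. Snord33 was at 10.21 in the cerebellum and at 11.43, 11.27 and 11.57 in the tumours (same order), a rise of 1.21 ± 0.19 (adjusted p = 0.0187). Snord35a was at 8.07 and at 9.13, 9.53 and 9.49, a rise of 1.31 ± 0.23 (adjusted p = 0.0230). Snord35b was at 6.74 and at 7.87, 8.04 and 7.99, a rise of 1.22 ± 0.17 (adjusted p = 0.0139). Each of these guides of ribose methylation was more than 2-fold higher, with the cerebellum the lowest of the 4 arrays (as for 38.2% of all named genes). Without the PtchLacZ/+ tumour their adjusted p was 0.0749, 0.0820 and 0.0669. In that fit no H/ACA and 2 C/D genes (Snord52 and Snord73b) rose, against 3.15% of all named genes. Without the 1-month SmoM2 tumour 1 H/ACA and 5 C/D genes rose, against 4.98%.

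Snord73a and Snord73b lie in Rps3a1, and the second passed the threshold. Snord73b was at 6.61 in the cerebellum and at 7.996, 7.93 and 8.52 in the tumours, a rise of 1.54 ± 0.29 (adjusted p = 0.0273). Snord73a just missed it. It was at 6.77 and at 7.596, 7.62 and 7.99, a difference of 0.97 ± 0.23 (adjusted p = 0.0512, and 0.0491 when genes of low mean level were left out). Both genes were highest in the PtchLacZ/+ tumour. The pair in Rps3 was likewise highest there. Snord15b was at 9.91 and at 10.66, 10.74 and 10.88, a rise of 0.85 ± 0.18 (adjusted p = 0.0402), and Snord15a was at 6.10 and at 7.16, 6.97 and 7.96, a difference of 1.26 ± 0.42 (adjusted p = 0.118). Snord82, in the nucleolin gene Ncl, was at 7.58 and at 8.74, 8.71 and 9.02, a rise of 1.24 ± 0.21 (adjusted p = 0.0202).

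Snora52 was the H/ACA gene that rose. It lies in Rplp2, a gene for a ribosomal stalk protein that itself did not pass (0.18 ± 0.23, adjusted p = 0.696). The Rplp2 probe set read 6.66 to 7.09, near the median of all named genes (6.73 to 6.82). How well it reports the Rplp2 mRNA was not tested. The level of Snora52 was 9.25 in the cerebellum and 10.38, 10.63 and 10.77 in the tumours, a rise of 1.35 ± 0.22 (adjusted p = 0.0192). It was 1 of 3 H/ACA genes above the cerebellum in every tumour. The others were Snora73a and Snora73b, the long H/ACA RNAs that act in cutting the ribosomal RNA precursor, with differences of 0.41 ± 0.26 (adjusted p = 0.376) and 0.48 ± 0.21 (adjusted p = 0.219). Among the C/D genes 18 were above the cerebellum in every tumour, against 38.2% of all named genes at their lowest in the cerebellum.

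C/D RNAs with roles in cutting the ribosomal RNA precursor did not pass. Snord22 was at 7.89 in the cerebellum and at 8.76, 8.43 and 9.45 in the tumours, a difference of 0.995 ± 0.41 (adjusted p = 0.193). Snord14e was at 8.80 and at 9.55, 7.68 and 9.42, so that the 2-month SmoM2 tumour lay below the cerebellum and the others above it, with a mean difference of 0.08 ± 0.78 (adjusted p = 0.969). Snord118 was not shown to be above background in any array.

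Some C/D genes stayed near their cerebellar level. Snord57 ranged from 11.97 to 12.20 over the 4 arrays and Snord49b from 10.94 to 11.08, with mean differences of 0.06 ± 0.18 and 0.02 ± 0.17 that turned to -0.38 and -0.12 after quantile normalization. Snord104 was at 10.27 in the cerebellum and between 9.93 and 10.20 in the tumours (-0.20 ± 0.19, adjusted p = 0.596). Snord61 was at 9.75 and between 9.36 and 9.83 (-0.17 ± 0.24, adjusted p = 0.731).

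The lowest mean difference of any member was that of Snord42b. It was at 8.73 in the cerebellum and at 7.74, 6.72 and 7.88 in the tumours, a difference of -1.28 ± 0.49 that did not pass (adjusted p = 0.164). All tumours lay below the cerebellum. Only Snord42b and Snord104 among the 51 members did so, the latter with differences from -0.35 to -0.07.

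The 2-month SmoM2 tumour stood apart for these genes. It was the lowest of the 4 arrays for 16 of 20 H/ACA genes (80.0%) and 11 of 31 C/D genes (35.5%), compared with 20.2% of all named genes. This count was chosen after the values were seen. When that tumour was left out, 9 H/ACA and 17 C/D genes rose and 1 C/D gene, Snord42b, fell (adjusted p = 0.0104), against 13.5% of all named genes rising and 16.7% falling. The H/ACA genes that rose then were Snora52, Snora33, Snora3, Snora23, Snora31, Snora2b, Snora69, Snora75 and Snora70, with differences between 0.56 and 1.32. Such a fit has 1 residual degree of freedom.

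Within the SmoM2 genotype, the 1-month tumour was set against the 2-month tumour. With 1 array each there is no test, and the counts describe these arrays. The median difference (1 month minus 2 months) was 0.99 for H/ACA genes, 0.16 for C/D genes and -0.08 for all named genes. The 1-month tumour was at least 1 log2 unit higher for 10 of 20 H/ACA and 6 of 31 C/D genes, against 2.05% of all named genes, and no member was higher by that much at 2 months (1.66% of all named genes).

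The largest H/ACA differences between the SmoM2 tumours were those of Snora75, Snora20, Snora31 and Snora30. Snora75, which also lies in Ncl, was at 6.54 in the cerebellum and at 7.15, 4.96 and 7.20 in the 1-month SmoM2, 2-month SmoM2 and PtchLacZ/+ tumours. Snora20, in the chaperonin gene Tcp1, was at 6.63 and at 6.80, 4.96 and 7.10. Snora31, in Tpt1, was at 6.51 and at 7.49, 5.79 and 7.29. In each, only the 2-month tumour lay below the cerebellum, with differences of -1.58, -1.68 and -0.72. Snora75 and Snora20 were there not shown to be above background, so their differences are lower limits. Snora30, in the chromatin remodeller gene Srcap, was at 7.59 and at 7.98, 6.32 and 7.78, and was likewise below the cerebellum only at 2 months.

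Snora33 and Snora3 showed the pattern on a smaller scale. Snora33, in Rps12, was at 5.84 in the cerebellum and at 6.99, 5.80 and 7.02 in the tumours. Snora3, in Rpl27a, was at 7.55 and at 8.39, 7.25 and 8.67. For both, the 2-month tumour lay below the cerebellum, by less than the other tumours lay above it (0.84 to 1.18). Snora21, in Rpl23, was at 6.44 and at 6.64, 5.13 and 6.57, and Snora41, in Eef1b2, at 5.94 and at 5.87, 4.99 and 6.31. Both were not shown to be above background in the 2-month tumour, and Snora41 was below the cerebellum at 1 month too.

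A minority of C/D genes also had their lowest value in the 2-month tumour. Snord37, in the elongation factor gene Eef2, was at 5.71 in the cerebellum and at 6.58, 4.05 and 5.57 in the 1-month SmoM2, 2-month SmoM2 and PtchLacZ/+ tumours. Snord95, in the ribosome-associated receptor gene Rack1, was at 6.12 and at 7.29, 5.66 and 7.41. Snord8 was at 7.68 and at 8.11, 6.70 and 8.06. The PtchLacZ/+ tumour also lay below the cerebellum for Snord37. With Snord14e, these had the largest C/D differences between the SmoM2 tumours, from 1.41 for Snord8 to 2.53 for Snord37, whose 2-month level was not shown to be above background. In the other direction the largest were those of Snord35a (1 month minus 2 months, -0.40) and Snord47 (-0.20). Among H/ACA genes only Snora52 (-0.26) and Snora7a (-0.03) were higher at 2 months.

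Across the 20 H/ACA genes the difference between the SmoM2 tumours was larger for shorter genes (Spearman rho -0.70 and Pearson r -0.48 of length with the difference). Across the 31 C/D genes rho was -0.02 and r was -0.12. These describe 2 arrays that all points share. H/ACA genes of lower cerebellar level also dropped more at 2 months. Their cerebellar level had a rho of 0.55 and an r of 0.51 with the difference 2 months minus 1 month. Both were 0.14 for C/D genes. Length and level were not tested against each other. Snora73a and Snora73b, the longest members at 205 nucleotides, differed by 0.54 and 0.30.

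**Figure D2:**
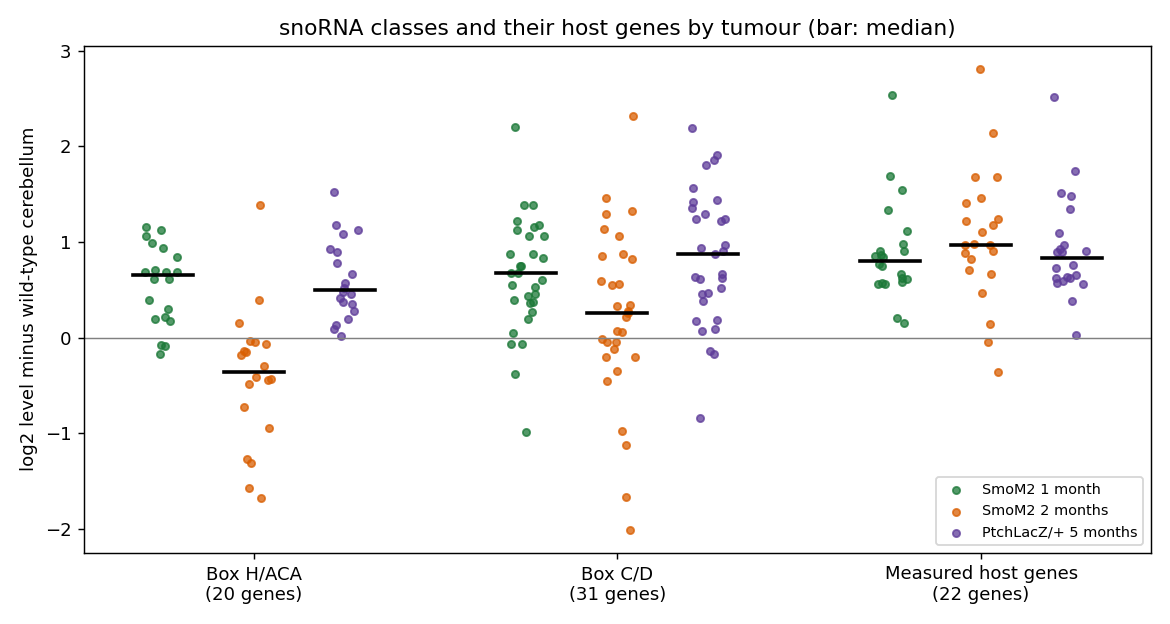
Difference from the wild-type cerebellum on the log2 scale (y axis) for each box H/ACA gene, box C/D gene and measured host gene (points, spread sideways at random), by tumour (colours), with the median as a bar. The H/ACA median is 0.65 and 0.49 in the 1-month SmoM2 and PtchLacZ/+ tumours and -0.36 in the 2-month SmoM2 tumour, where the host median is 0.97.

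Some other measurements moved with this order of arrays and some did not. Their part in it was not tested. The 3 small Cajal body RNA (Scarna) genes had medians of 0.39, -0.41 and 0.45 against the cerebellum in the 1-month SmoM2, 2-month SmoM2 and PtchLacZ/+ tumours. The 5 Rnu genes did not follow it, with medians of -0.10, 0.05 and -0.18, and 1 of them was lowest in the 2-month tumour. Of 300 microRNA precursor genes, 126 (42.0%) were lowest in the 2-month tumour, against 20.2% of all named genes. Their median level was 4.56 to 4.85 over the 4 arrays, under the lower quartile of each. Many of them were thus not shown to be above background. Of the choroid plexus markers, Ttr was at 6.23 in the cerebellum and at 11.27, 4.50 and 10.81 in the tumours, and Kcnj13 at 6.81 and at 5.95, 4.97 and 5.88. Both were lowest in the 2-month tumour. Kl, the remaining marker of that list, was at 4.70 and at 5.52, 4.77 and 5.26. All of these markers in the 2-month tumour, and Kl in the cerebellum, were not shown to be above background. The proliferation markers Mki67, Top2a and Ccna2 did not share one order. Mki67 was at 11.01, 10.20 and 11.15, Top2a at 10.86, 10.81 and 11.04, and Ccna2 at 10.82, 11.06 and 10.99.

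Next, the PtchLacZ/+ tumour was set against the SmoM2 pair in a fit over all genes. No member passed the threshold, nor did any of the 19938 named genes (0.00%; limma with 1 residual degree of freedom). An unadjusted p under 0.05 was reached by 3 members, Snord15a, Snord22 and Snord42a, and by 280 genes in all (1.40%). The median difference was 0.62 for H/ACA and 0.33 for C/D genes and -0.03 for all named genes. Against the 1-month tumour alone the medians were 0.06 and 0.15, and against the 2-month tumour alone 1.05 and 0.37.

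The PtchLacZ/+ tumour had the highest value of the 4 arrays for 12 of 20 H/ACA and 20 of 31 C/D genes, against 16.9% of all named genes. It exceeded both SmoM2 tumours for 12 and 21 genes, against 23.8%. Snord42a, in Rpl23a, was at 7.44 in the cerebellum, 7.89 in the 1-month SmoM2, 7.23 in the 2-month SmoM2 and 8.68 in the PtchLacZ/+ tumour, a difference of 1.11 ± 0.36 from the SmoM2 tumours. Snord16a, in Rpl4, was at 7.68, 9.06, 7.73 and 9.48 in the same order (1.09 ± 0.59). Snord15a differed by 0.89 ± 0.26 and Snord22, of the noncoding host Snhg1, by 0.86 ± 0.28. All had an adjusted p of 1.00. No member exceeded both SmoM2 tumours by 1 log2 unit (0.0853% of all named genes did). The lowest differences by class included those of Snora44 (-0.23 ± 0.64), Snora73b (-0.19 ± 0.28) and Snord87 (-0.14 ± 0.25).

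The host genes were measured next. By the RefSeq gene table (GRCm38.p6), 47 members lay within exactly 1 other gene, 3 within more than 1 and 1, Snord118, within none. The table gives no strand for these genes, so hosts are by position alone. Of the hosts, 22 were measured by a probe set of their own, for 26 members. The host medians were alike in the tumours: the median difference from the cerebellum was 0.81, 0.97 and 0.83 in the 1-month SmoM2, 2-month SmoM2 and PtchLacZ/+ tumours. Of the 22 hosts, 10 rose (45.5%, against 6.70% of all named genes) and none fell. This count depended on the arrays used and their scaling: 20 rose when the 2-month SmoM2 array was left out, 6 when the 1-month array was and 4 when the PtchLacZ/+ array was, and 5 rose after quantile normalization. Rps3a1 rose by 2.62 ± 0.20 (adjusted p = 0.00436), the ribosomal protein gene Rpsa by 1.86 ± 0.25 (adjusted p = 0.0114), Rps12 by 1.58 ± 0.18 (adjusted p = 0.00783) and Rbmx, an RNA-binding protein gene, by 1.40 ± 0.17 (adjusted p = 0.00985).

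**Figure D3:**
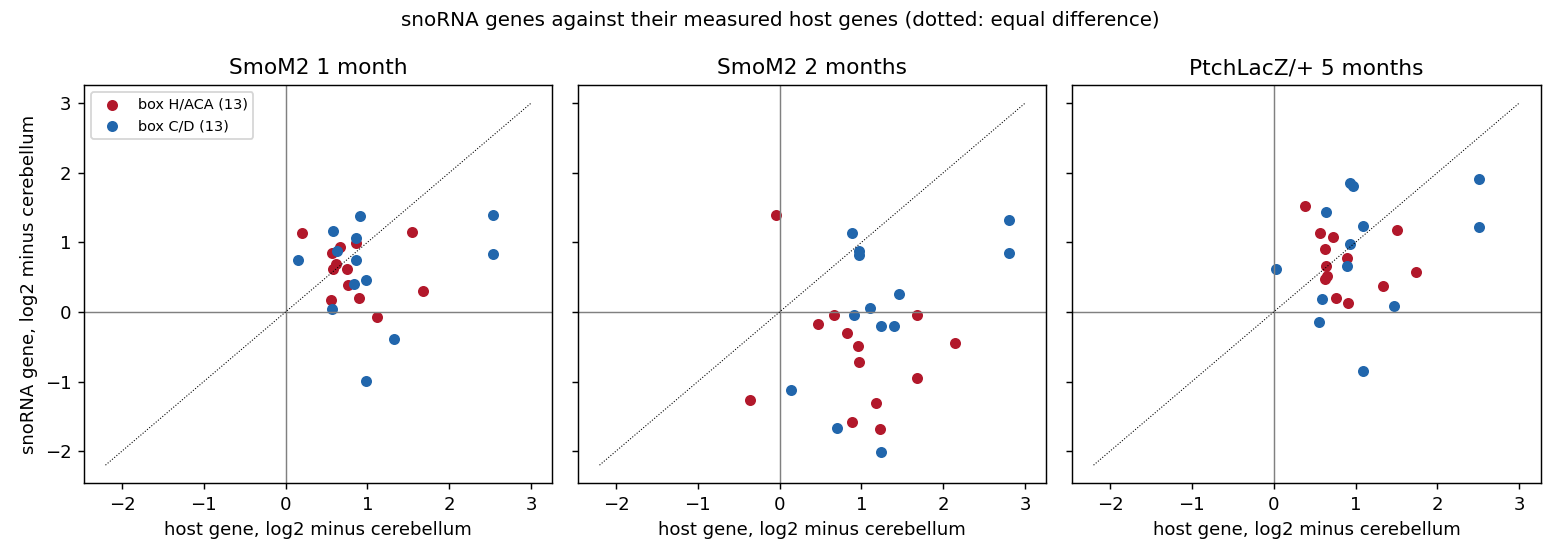
Difference from the wild-type cerebellum on the log2 scale of 26 snoRNA genes (y axis) against that of their measured host genes (x axis), by tumour; the dotted line marks equal differences. In the 2-month SmoM2 tumour 17 points have a host above and a snoRNA gene below the cerebellum, compared with 3 and 2 in the 1-month SmoM2 and PtchLacZ/+ tumours.

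In the 2-month SmoM2 tumour snoRNA genes and hosts parted. Of 13 measured H/ACA pairs, 11 had a host above and a snoRNA gene below the cerebellum, and so had 6 of 13 C/D pairs. In the 1-month tumour these counts were 1 and 2, and in the PtchLacZ/+ tumour 0 and 2. Tcp1, for example, was at 10.72 in the cerebellum and at 11.28, 11.94 and 11.34 in the tumours, highest where its Snora20 was lowest. Rpsa was at 10.37 and at 12.05, 12.51 and 12.11, while its Snora62 was at 6.97 and at 7.27, 6.53 and 7.55. Srcap was an exception, at 9.15 and at 9.92, 8.79 and 9.91, and had the same order as Snora30. Rplp2, whose probe set read near the median of all named genes, was at 6.71 and at 6.91, 6.66 and 7.09. It also lay below the cerebellum at 2 months (-0.05), while its Snora52 was 1.39 above. Across the 26 pairs, the mean differences of snoRNA gene and host had a Spearman rho of 0.09 and a Pearson r of 0.22, as a description of arrays that all points share.

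Members that share a host could be compared directly. There were 10 such hosts with 2 members each. In 3 of them, the members lay on opposite sides of the cerebellum in the 2-month SmoM2 tumour. Ncl holds 1 gene of each class: Snord82 was 1.16, 1.13 and 1.44 above the cerebellum in the 1-month SmoM2, 2-month SmoM2 and PtchLacZ/+ tumours, and Snora75 differed by 0.61, -1.58 and 0.66. In Rack1, Snord95 differed by 1.17, -0.46 and 1.29 and Snord96a by 0.52, 0.21 and 0.62. The third was the noncoding RNA 2410006H16Rik, where Snord49a differed by 0.67, -0.02 and 0.90 and Snord49b by -0.07, 0.06 and 0.07.

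Other pairs moved together in every tumour or parted in only some of them. The pairs in Rps3, Rps3a1, Rpl13a and Snhg3 were higher in every tumour. In Rpl23a, Snord42a differed by 0.45, -0.21 and 1.24, whereas Snord42b was lower in each (-0.99, -2.01 and -0.84). Their host Rpl23a rose by 1.10 ± 0.19 (adjusted p = 0.0218). In Snhg12, Snora16a ranged from 7.66 to 7.82 over the 4 arrays, and Snora44 from 6.32 to 7.81, with its highest value in the 1-month SmoM2 tumour.

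**Figure D4:**
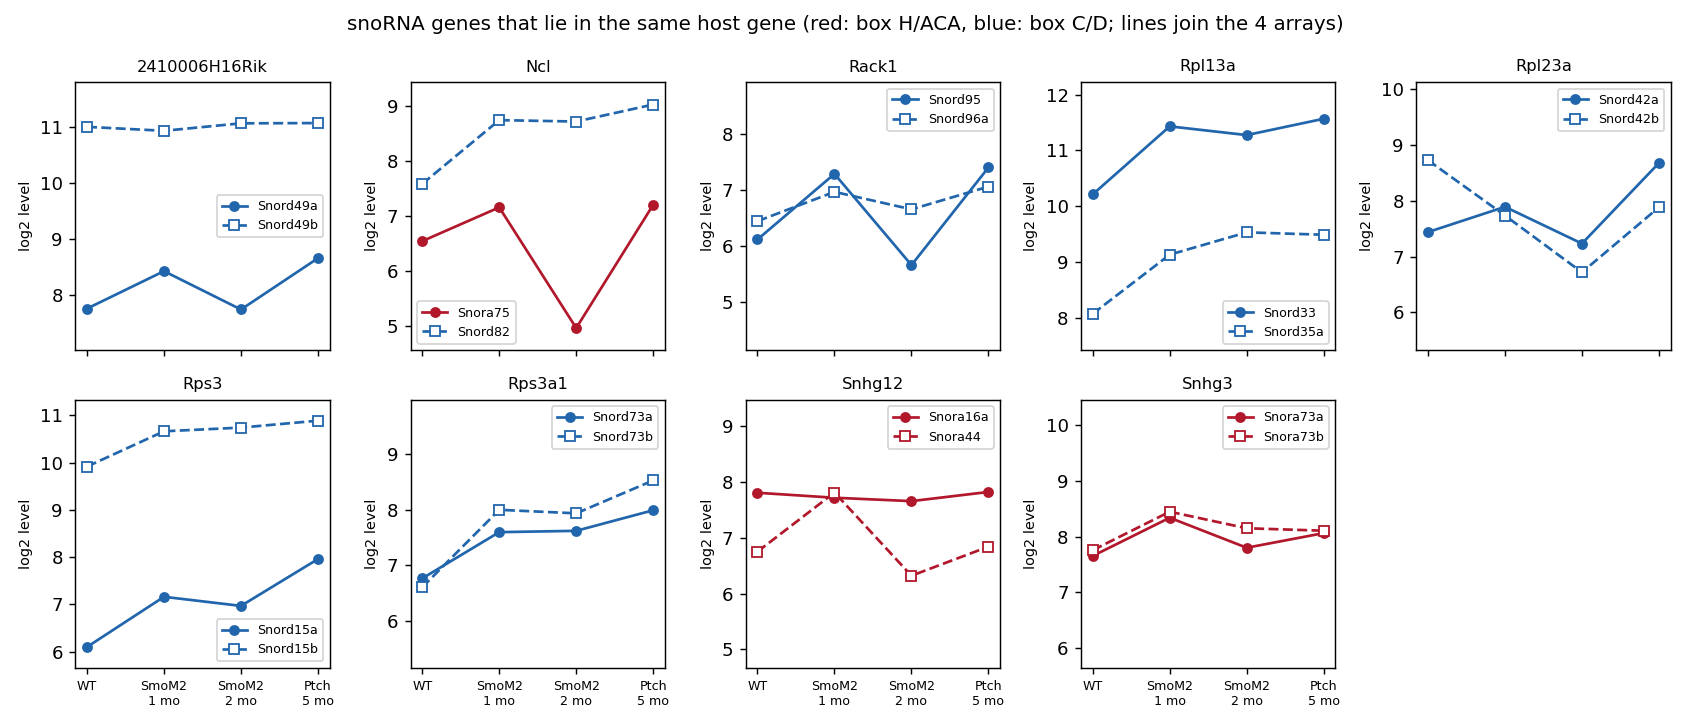
Log2 level (y axis) of snoRNA genes that lie in the same host gene, 1 panel for each host described in the text, in the 4 arrays (x axis; lines only join the points of a gene). In the Ncl panel Snora75 drops to 4.96 in the 2-month SmoM2 tumour while Snord82 stays at 8.71; both genes of the Rps3a1 and Rpl13a pairs lie above the cerebellum in every tumour.

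The sequence around the annotated start of the containing gene is shown for hosts of genes that rose. Whether the snoRNAs are transcribed from these starts was not tested. Each sequence runs from 60 bases before the annotated start to 20 after it, on the host's strand, from RefSeq (GRCm38.p6), with its longest uninterrupted run of C and T in capitals. Host genes of the translation machinery often start in such a pyrimidine run. Ncl (chr1:86359436-86359515, minus strand) holds Snora75 and Snord82, which parted. Rpl13a (chr7:45128726-45128805, minus) holds Snord33 and Snord35a, Rps3a1 (chr3:86142649-86142728, minus) the Snord73 pair, Rplp2 (chr7:141447591-141447670, plus) Snora52 and 1110038B12Rik (chr17:34952452-34952531, minus, 1 of 2 annotated starts) Snord52.
Ncl: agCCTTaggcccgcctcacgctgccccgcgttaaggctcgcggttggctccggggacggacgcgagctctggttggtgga
Rpl13a: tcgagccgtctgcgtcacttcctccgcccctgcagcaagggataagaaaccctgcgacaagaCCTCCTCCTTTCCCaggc
Rps3a1: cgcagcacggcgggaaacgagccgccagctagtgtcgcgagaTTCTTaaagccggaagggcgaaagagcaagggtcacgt
Rplp2: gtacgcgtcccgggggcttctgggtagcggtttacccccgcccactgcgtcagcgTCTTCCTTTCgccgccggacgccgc
1110038B12Rik: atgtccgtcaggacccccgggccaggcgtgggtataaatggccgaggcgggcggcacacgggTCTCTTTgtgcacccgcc
The longest run was 14 bases in Rpl13a, 10 in Rplp2, 7 in 1110038B12Rik, 5 in Rps3a1 and 4 in Ncl. A run of at least 8, anywhere in the sequence, was present at 16 of 30 start sites of 29 hosts (53.3%). The same held at 31.2% of the 32851 start sites of the whole table. Many of these runs do not cover the start itself, so these are not shares of genes that start in a run. The genes that rose thus had hosts with long and with short runs.

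Genes for the proteins that bind snoRNAs were taken from lists of the pathway. Of the 4 C/D core proteins, 2 rose, against 6.70% of all named genes. Nop58 was at 8.58 in the cerebellum and at 9.96, 10.25 and 10.19 in the 1-month SmoM2, 2-month SmoM2 and PtchLacZ/+ tumours (1.56 ± 0.20, adjusted p = 0.0106). The methyltransferase gene Fbl was at 8.14 and at 9.45, 10.51 and 9.99 (1.85 ± 0.42, adjusted p = 0.0465). Nop56 differed by 0.69 ± 0.21 (adjusted p = 0.100) and Snu13 by 0.09 ± 0.23 (adjusted p = 0.866).

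None of the 4 H/ACA core proteins passed. An unadjusted p under 0.05 was reached by 3, against 29.7% of all named genes. The pseudouridine synthase gene Dkc1 was at 8.47 and at 9.29, 9.90 and 9.37 (1.05 ± 0.29, adjusted p = 0.0790), Nhp2 at 8.31 and at 9.32, 10.28 and 9.57 (1.41 ± 0.40, adjusted p = 0.0821), and Gar1 at 8.31 and at 9.01, 9.13 and 9.42 (0.88 ± 0.22, adjusted p = 0.0628). Nop10 differed by 0.07 ± 0.23 (adjusted p = 0.888). Without the 2-month SmoM2 tumour Dkc1, Nhp2 and Gar1 passed (adjusted p = 0.0111, 0.00721 and 0.0280). All 8 core protein genes were higher in the 2-month than in the 1-month SmoM2 tumour, with medians (1 month minus 2 months) of -0.43 for H/ACA and -0.39 for C/D proteins, against 0.99 for H/ACA snoRNA genes. The whole array leaned the same way, with only 8005 of the 19938 named genes higher at 1 month (median -0.08).

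Of 17 measured assembly and processing factors, 5 rose (29.4%) and none fell, with a median of 0.59. Of all named genes 6.70% rose and 9.30% fell, with a median of 0.04. Ruvbl2, an ATPase of the assembly machinery, rose by 1.38 ± 0.25 (adjusted p = 0.0258), and Tcof1, the nucleolar treacle gene, by 1.18 ± 0.21 (adjusted p = 0.0243). The assembly factor gene Znhit3 was lower without passing (-0.88 ± 0.22, adjusted p = 0.0601), and the debranching enzyme gene Dbr1 differed by -0.18 ± 0.27 (adjusted p = 0.752). Of 39 measured protein-coding genes on a list of known snoRNA hosts, 22 rose (56.4%) and 1 fell, with a median of 1.00. Many of them are also among the hosts by position above, so this count is not independent of that one. Taf1d rose by 2.30 ± 0.40 (adjusted p = 0.0224), while the translation factor gene Eif4a2 fell by 1.74 ± 0.27 (adjusted p = 0.0175) and Rpl30 differed by -0.29 ± 0.36 (adjusted p = 0.693).

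Of 10 measured genes on a list of noncoding hosts, 2 rose and 2 fell, against 6.70% and 9.30% of all named genes. The list also holds Cwf19l1, which encodes a protein (-0.03 ± 0.18, adjusted p = 0.934). Gas5, which holds Snord47 by position together with another gene, rose by 1.81 ± 0.17 (adjusted p = 0.00606), while Snord47 itself was at 8.94 in the cerebellum and at 9.30, 9.50 and 9.80 in the tumours (0.60 ± 0.25, adjusted p = 0.191). Snhg5 rose by 1.40 ± 0.32 (adjusted p = 0.0475). The imprinted gene Rian fell by 2.97 ± 0.37 (adjusted p = 0.0101), and Snhg11, named after its values were seen, fell by 1.16 ± 0.18 (adjusted p = 0.0160). Meg3, of the same imprinted region as Rian, differed by -4.19 ± 1.12 (adjusted p = 0.0712). Rian was not shown to be above background in the 2-month SmoM2 and PtchLacZ/+ tumours, so its fall is a lower limit. Of these 10 listed genes, 8 were higher in the 1-month than in the 2-month SmoM2 tumour (median 0.41). Of the 19938 named genes, 8005 were (median -0.08). The protein-coding Cwf19l1 was not among the 8 listed genes (-0.11). Of the 39 genes on the list of protein-coding hosts, 9 were higher at 1 month (median -0.26).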

How the data were processed

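Values on a log2 scale, deposited by the authors, formed 1 table of 35557 probe sets and 4 arrays. Per the submitters' processing notes, Affymetrix Expression Console was used. How it summarised and normalized the probes is not stated in the labels, and the scale was read from the range of the values (2.71 to 14.86). They were used as deposited, with no filter. The platform annotation gave the gene names: 21789 had a single gene symbol, 1621 several and 12147 none. Each of the 19938 genes kept the probe set with the highest mean (999 genes had more than 1).

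The tests were limma's (lmFit and eBayes, adjusted p under 0.05; limma 3.58.1, R 4.3.3), tested on simulated data first. Tumour against cerebellum had 2 residual degrees of freedom, and the lone sample of a fit was assumed to vary like the others. Errors after ± are standard errors of the fit. The number of arrays limits the precision. The members, lists, hosts and tests were chosen with earlier results of these data known. Genes were named by rank: per class, the 6 largest tumour differences in each direction, 4 in the other comparisons and the 5 highest means, all called members and their hosts, and from the gene lists the core proteins and the 2 genes of each direction. Of 101 list entries 74 were measured. Alternatives were quantile normalization, centring, a level filter, the mean of probe sets, trended and robust prior variance, and leaving out each tumour. The sequences of the snoRNAs are not printed here. Results for some genes are not reported here.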

Additional observations from a re-analysis of the deposited data

How the results depend on the processing

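Centring the arrays, the mean of probe sets, a level filter, quantile normalization and trended or robust variance changed no call of a snoRNA gene, except that Snord73a passed with the level filter (adjusted p = 0.0491), and no count of called members by over 1.5 times. Leaving out a tumour did: H/ACA genes that rose numbered 0 to 9 (0 without the PtchLacZ/+ and 9 without the 2-month SmoM2 tumour), C/D genes that rose 2 to 17 and C/D genes that fell 0 to 1. Called core proteins then numbered 0 to 3 for H/ACA and 1 to 3 for C/D, assembly factors that rose 0 to 7 and fell 0 to 1, noncoding hosts that rose 1 to 4 and fell 1 to 3, and coding hosts that rose 5 to 31 and fell 0 to 1. Snora52, Snord15b, Snord33, Snord35a, Snord35b and Snord82 missed the threshold without the PtchLacZ/+ tumour (adjusted p = 0.0669 to 0.161), and Snord15b and Snord33 without the 1-month tumour (0.0867 and 0.0514). The PtchLacZ/+ difference from SmoM2 for C/D genes (median) was 0.15 to 0.37, and for H/ACA genes 0.06 to 1.05. Assembly factors that rose were 3 with trended variance. With centring, 1 assembly factor fell and 1 noncoding host rose, and 1 noncoding host rose with the mean of probe sets and with robust variance. Leaving out a tumour turned the sign of the tumour difference for Snora20 (-0.75 to 0.32), Snora21 (-0.59 to 0.16), Snora30 (-0.54 to 0.29), Snora41 (-0.51 to 0.15), Snora75 (-0.48 to 0.64), Snord37 (-0.90 to 0.36) and Snord8 (-0.30 to 0.41), each positive without the 2-month SmoM2 tumour. It did so for Snora44 (-0.17 to 0.57) without the 1-month tumour, for Snora7a (-0.15 to 0.16) and Snord57 (-0.002 to 0.12) without the PtchLacZ/+ tumour, and for Snord14e (-0.25 to 0.68) and Snord49b (-0.0038 to 0.065) without either of 2 tumours. With quantile normalization it turned for Snord49b (-0.12) and Snord57 (-0.38). The cause was not tested. No paired analysis was possible because the labels number no replicates. Genes lowest in the 2-month tumour numbered 13 to 17 (H/ACA) and 10 to 12 (C/D) under other scalings, filter and probe set choice, alternatives added after seeing the data.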

Other observations

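The 41 probe sets that name a snoRNA gene together with another gene were outside the comparisons above. Of the 8 that name an H/ACA gene, the median difference from the cerebellum was 0.20 in the 1-month SmoM2, -0.32 in the 2-month SmoM2 and 0.30 in the PtchLacZ/+ tumour, and 5 were lowest in the 2-month tumour. Of the 33 that name a C/D gene, which carry only 8 different annotations, the medians were -0.13, -0.42 and -0.32, and 25 were lowest in the 2-month tumour. Among all named genes 20.2% were lowest there.

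Among the 300 microRNA precursor genes, 32 were at least 1 log2 unit higher in the 1-month than in the 2-month SmoM2 tumour. None was higher by that much in the 2-month tumour. Over all named genes these shares were 2.05% and 1.66%. The median difference was 0.09, against -0.08 for all named genes. The median level of these precursor genes lay under the lower quartile of each array, so many were not shown to be above background. The 3 Rn7s and Rny genes were all lowest in the 2-month tumour, and of the 5 Rnu genes 1 was.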
